A study of Schizosaccharomyces pombe with 12 samples.

Results

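The 9 genes bgs1, bgs2, bgs3, bgs4, ags1, mok11, mok12, mok13 and mok14 encode the catalytic subunits that make the glucans of the cell wall and spore wall of the fission yeast Schizosaccharomyces pombe. They were chosen by gene symbol from the 5160 genes in the tables by a rule that uses no measured value, though with earlier results of these data known, and each symbol matched 1 gene. RNA was sequenced from 12 libraries, 3 of each of 4 groups. The WT group is set against strains in which lysines 5, 10 and 15 of histone H2B are all replaced, by alanine in group A, by glutamine in group Q and by arginine in group R. The label of A replicate 2 names position 16 for its last change where the other A labels name 15. Whether the replicates are separate cultures is not stated in the labels. The p-values therefore reflect only how these libraries vary, which may be technical variation. Other differences between the strains cannot be told apart from the substitutions. The labels name no growth condition, promoter or plasmid.

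The fission yeast wall holds β-glucan, α-glucan and galactomannan. Bgs proteins are the catalytic subunits of β-1,3-glucan synthase, while Ags1 (also called Mok1) and the Mok proteins are α-glucan synthases. During division the wall grows inward as a septum, and glucanases later cut it so that the daughter cells part. During sporulation a new wall is built around each spore, for which cells use other members of both families.

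Total counts lay between 15329416 in Q replicate 1 and 20050394 in WT replicate 1, and 5024 genes were tested. The 9 genes had between 582 and 29716 counts per library, so all of them passed the filter on low counts and none was near the floor of 3 counts, which was 0.15 to 0.196 CPM, the count scaled to the library total. Together they took between 0.298% of the counts in A replicate 2 and 0.406% in Q replicate 2. Values are CPM scaled by TMM, a correction for composition, with the mean ± SD of 3 libraries. Fold changes are log2 values with an SE from edgeR's quasi-likelihood test, and a gene was called when its adjusted p (Benjamini-Hochberg over 5024 genes) was below 0.05. Levels of different genes are compared only in FPKM, which is scaled for gene length.

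In WT the family spanned a wide range of FPKM. bgs4, the main synthase of the branched β-glucan of the growing wall and the secondary septum, was highest at a mean of 179 FPKM, above 86.6% to 88.3% of genes. It was followed by bgs1, the synthase of the linear β-glucan of the primary septum (81.8 FPKM), bgs3, an essential synthase of the growing cell (76.9 FPKM), and ags1, the essential α-glucan synthase of the vegetative wall (58.4 FPKM). The 5 others lay lower. mok13 had 19.2 FPKM and bgs2, the spore wall β-glucan synthase, 18.9 FPKM, and their WT libraries overlapped in rank. mok11 had 16.2 FPKM, mok12 had 10.4 FPKM and mok14 had 8.77 FPKM, the last above 12.2% to 14.5% of genes. In fission yeast mok12, mok13 and mok14 are known for roles in forming the spore wall.

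The 4 β-glucan synthase genes summed to between 303 FPKM in A replicate 2 and 432 FPKM in Q replicate 2, and the 5 α-glucan synthase genes to between 100 FPKM in A replicate 2 and 127 FPKM in R replicate 2. The β members made up 73.1% to 79.6% of the family sum in every library, and bgs4 made up 44.3% to 54.3% of the β sum. The makeup of the α sum differed between WT and the mutants. ags1 was 51.3% to 52.2% of the α sum in WT, 45.1% to 46.5% in A, 41.6% to 44.9% in Q and 40.0% to 50.1% in R. mok13 was 15.9% to 17.6% of it in WT and 19.9% to 28.4% in the mutants. For both genes all 9 mutant libraries lay on the same side of the WT libraries, ags1 below and mok13 above. These shares are descriptions and were not tested.

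**Figure D1:**
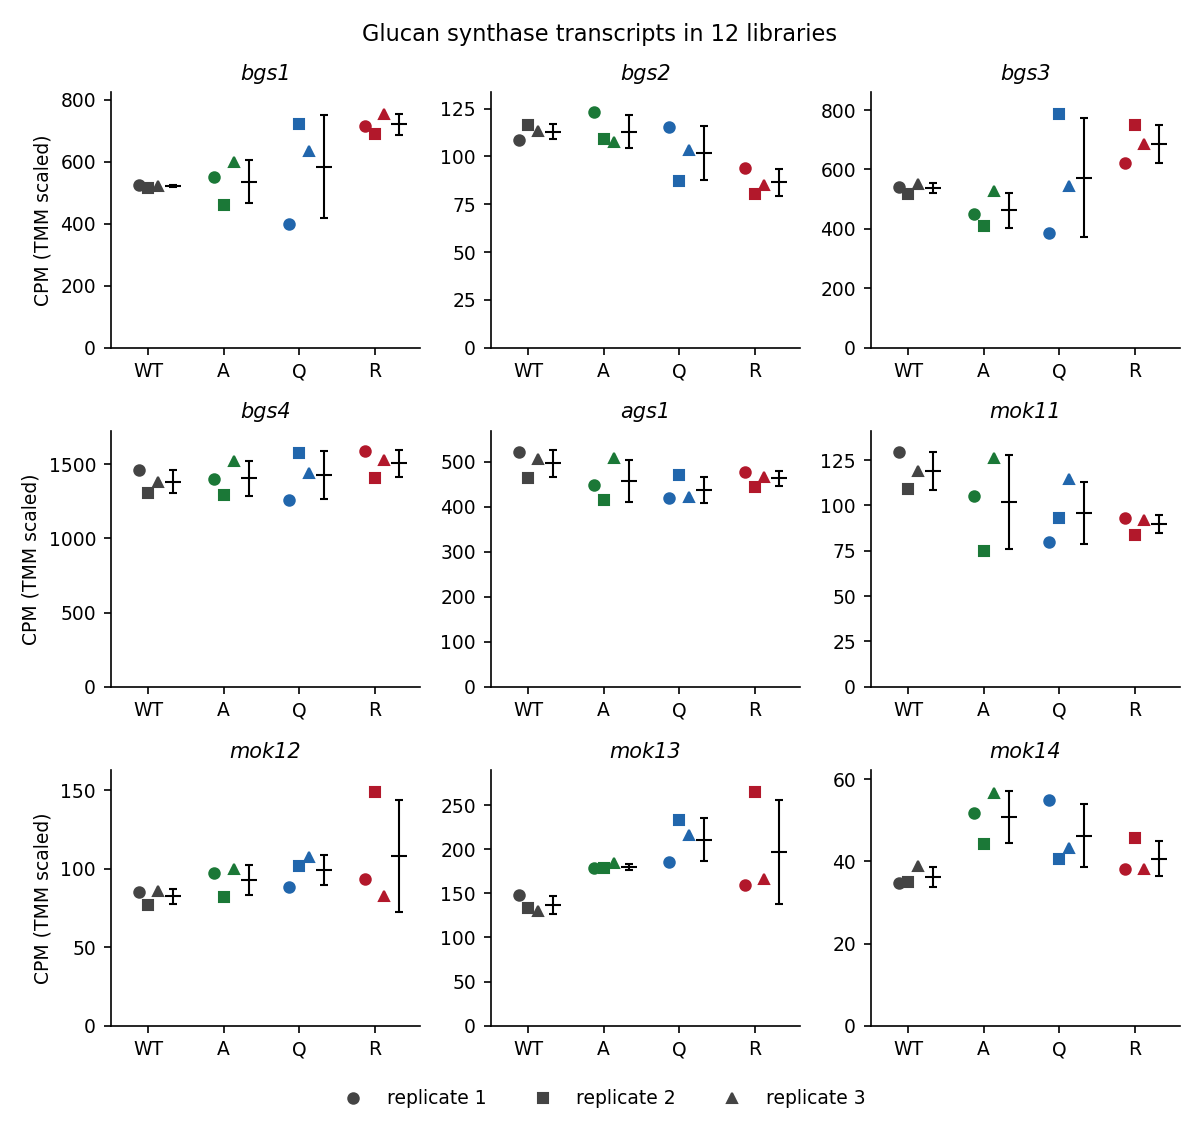
CPM (TMM scaled, axis from 0) of each glucan synthase gene in the 12 libraries, with circles, squares and triangles for replicates 1, 2 and 3 and a bar for the mean ± SD of each group. WT libraries lie close together for bgs1 (516.7 to 523.7 CPM), while Q spreads from 398.4 to 721.1 CPM, and mok13 lies above the WT libraries in all 9 mutant libraries.

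Changes of the family were small against WT. None of the 9 genes was called in A, mok13 rose in Q, and mok13 rose while bgs2 fell in R. The members' counts of 0, 1 and 2 stand beside a background of 4.16% of all tested genes called for A, 34.5% for Q and 24.2% for R. Without 1 library the members' counts ran from 0 to 2 for both Q and R. None was called in Q without WT replicate 2 or 3 or Q replicate 2, or in R without any 1 of the WT libraries or R replicate 2, and 2 were called in Q without Q replicate 1. At an unadjusted p below 0.05 the counts for A, Q and R were 2, 2 and 4 members, against 24.5%, 46.1% and 39.8% of all genes. The members' median size of change on the log2 scale was 0.17, 0.18 and 0.38 in the same order, beside 0.22, 0.34 and 0.30 over all genes. In all 27 pairs of gene and mutant the interval of 2 SE either side of the change lay within 2-fold, with outer ends of 0.59-fold and 1.96-fold. RNA of whole cultures was measured, so fewer cells of a type and less RNA per cell cannot be told apart.

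**Figure D2:**
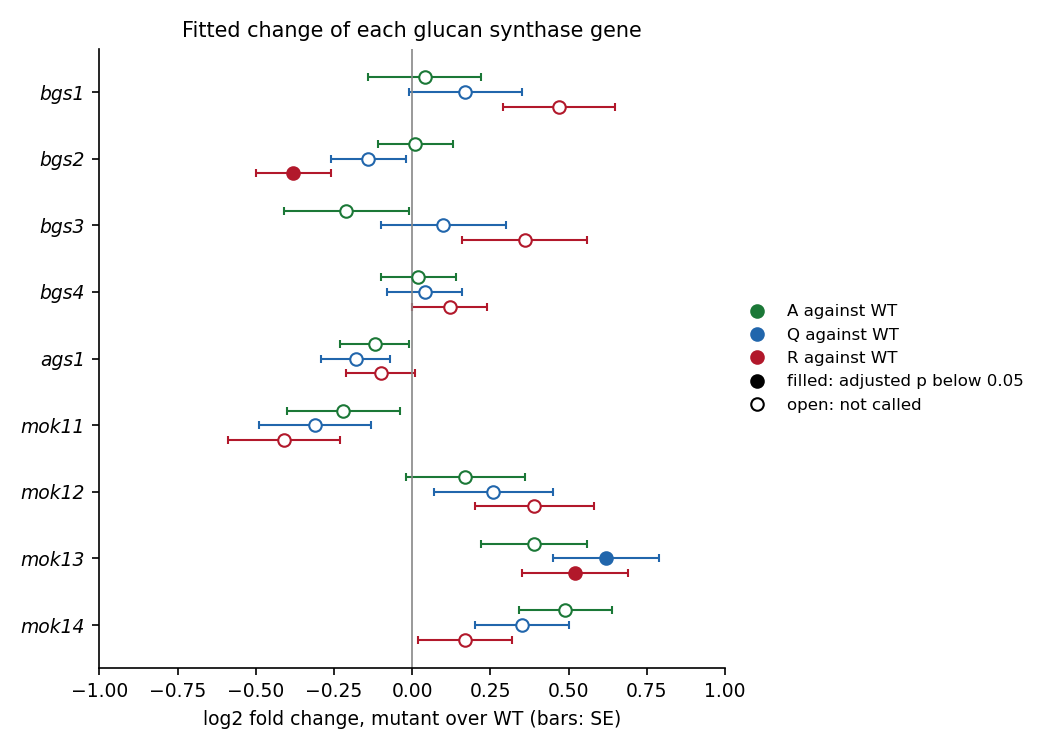
Fitted log2 fold change of each of the 9 genes in A, Q and R against WT (horizontal axis, from -1 to 1), with bars of 1 SE and filled points for an adjusted p below 0.05. The 3 filled points are mok13 in Q (0.62) and R (0.52) and bgs2 in R (-0.38).

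Among the septum and growth synthases, bgs1 had 523.7, 516.7 and 521.4 CPM in WT and 716.9, 689.1 and 755.9 CPM in R. The R libraries all lay above WT, by 0.47 on the log2 scale (SE 0.18), but the adjusted p was 0.0761 and the gene was not called. In Q it had 398.4, 721.1 and 633.9 CPM, so Q replicate 1 lay below and the other Q libraries above WT. A overlapped WT, with 550.5, 460.0 and 598.9 CPM. bgs3 had 540.5, 517.8 and 551.6 CPM in WT and 623.4, 750.5 and 686.0 CPM in R, also without overlap, for a difference of 0.36 (SE 0.20, adjusted p 0.209). In Q it had 387.8, 786.4 and 545.8 CPM, with replicate 1 again the lowest library of the group and replicate 2 the highest of all 12. In A bgs3 had 450.8, 410.3 and 527.2 CPM, a difference of -0.21 from WT with an interval of -0.62 to 0.19. In the fit of R and WT alone, bgs1 (adjusted p 0.00904) and bgs3 (0.0288) were called higher in R. Without Q replicate 1, bgs1 was called higher in Q (0.0426).

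bgs4 and ags1, the most abundant β and α synthase genes, stayed within the narrowest ranges of the family. The highest library exceeded the lowest 1.26-fold for bgs4 and 1.25-fold for ags1, against 1.53-fold to 2.04-fold for the other 7 genes. bgs4 averaged 1383 ± 76.3 CPM in WT, 1405 ± 116 in A, 1426 ± 161 in Q and 1508 ± 91.5 in R, and all groups overlapped. Its largest difference from WT was 0.12 in R, with an interval of -0.12 to 0.37 (adjusted p 0.463). ags1 averaged 497 ± 30.1 CPM in WT, 458 ± 47.0 in A, 437 ± 28.2 in Q and 463 ± 16.8 in R, again with overlap. Against WT it differed by -0.12 in A (adjusted p 0.515), by -0.18 in Q (0.194, and 0.0493 without replicate 2 of A, Q and R) and by -0.10 in R (0.495).

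bgs2 had 108.5, 116.4 and 113.3 CPM in WT and 93.8, 80.4 and 85.0 CPM in R. Every R library lay below every WT library, and the gene fell in R by 0.38 on the log2 scale (SE 0.12, adjusted p 0.036), to 0.77 of the WT level. The call was lost without WT replicate 1 (adjusted p 0.0833), 2 (0.0948) or 3 (0.103) and without R replicate 2 (0.112) or 3 (0.0756). A had 123.2, 108.9 and 107.5 CPM and Q had 115.5, 87.1 and 103.5 CPM, and both overlapped WT. bgs2 was thus lower in the mutant group in which the septum synthase gene bgs1 had its highest mean.

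mok13 had 148.4, 133.6 and 129.6 CPM in WT and 178.6, 178.4 and 183.9 CPM in A. The Q libraries held 185.0, 232.9 and 216.1 CPM, and the R libraries 159.5, 264.8 and 165.8 CPM. No mutant library reached down to the WT range, and R replicate 2 was the highest of all. The gene rose 1.54-fold in Q (log2 0.62, SE 0.17, adjusted p 0.0177) and 1.43-fold in R (0.52, SE 0.17, adjusted p 0.0462). In A it was 1.31-fold higher with an adjusted p of 0.188, and it was called there in the fit of A and WT alone (0.0205) and without replicate 2 of A, Q and R (0.0302). The Q call was lost without Q replicate 2 (adjusted p 0.0617) or WT replicate 2 (0.0595) or 3 (0.0672). The R call was lost without WT replicate 1 (0.0899), 2 (0.114) or 3 (0.14). It was also lost in the fit of R and WT alone (0.0845), without replicate 2 of A, Q and R (0.0936) and in limma on log2(FPKM + 1) (0.148) or log2(FPKM + 0.1) (0.146). Without R replicate 2 the R difference was 0.24 with an adjusted p of 0.186, so the difference was over 1.5 times smaller without that library.

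mok14 was the least abundant member, and the deposited tables describe it as an α-1,4-glucan synthase. It had 34.8, 34.9 and 38.9 CPM in WT and 51.8, 44.2 and 56.7 CPM in A. The Q libraries had 54.9, 40.5 and 43.3 CPM, and the R libraries 38.2, 45.7 and 38.2 CPM. The A and Q libraries lay above WT and the R libraries overlapped it. The differences were 0.49 in A (SE 0.15, adjusted p 0.0754), 0.35 in Q (adjusted p 0.0798) and 0.17 in R (adjusted p 0.412), so none was called. Without replicate 2 of A, Q and R the gene was called higher in A (adjusted p 0.0206) and Q (0.0261). For A it was also called in the fit of A and WT alone (0.028) and by DESeq2 (0.0321).

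mok12 had 84.9, 76.9 and 85.7 CPM in WT and 97.1, 81.9 and 99.8 CPM in A. Its Q values were 88.3, 101.5 and 107.2 CPM and its R values 93.1, 148.8 and 82.8 CPM. The Q libraries alone lay wholly above WT, by 0.26 (adjusted p 0.286), and the R difference of 0.39 (adjusted p 0.138) had R replicate 2 far above the other R libraries. mok12 was called higher in R without R replicate 3 (adjusted p 0.0499). mok11 moved the other way in its means. It had 129.5, 108.8 and 119.1 CPM in WT and 105.4, 74.7 and 126.2 CPM in A. It had 80.0, 93.2 and 114.3 CPM in Q, beside 93.2, 83.9 and 92.1 CPM in R. The R libraries lay below WT, by 0.41 on the log2 scale (SE 0.18), with an adjusted p of 0.109 and thus no call. The fit of R and WT alone called it lower in R (adjusted p 0.0227).

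Counted by overlap alone, 2 genes in A (mok13, mok14) and 3 in Q (mok12, mok13, mok14) had all mutant libraries above all WT libraries, and none had them below. In R 3 genes lay above (bgs1, bgs3, mok13) and 2 below (bgs2, mok11). As background, groups did not overlap in either direction for 42.1% of all tested genes in A, for 53.5% in Q and for 55.0% in R. The 3 comparisons share their WT libraries. From highest to lowest group mean the order was R, Q, A, WT for bgs1, bgs4 and mok12, R, Q, WT, A for bgs3, A, WT, Q, R for bgs2, and WT, R, A, Q for ags1. It was WT, A, Q, R for mok11, Q, R, A, WT for mok13 and A, Q, R, WT for mok14. Only A and WT of mok13 were neighbours in such an order whose libraries did not overlap.

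Between the mutants none of the 9 genes was called. Of all tested genes 3.64% were called between Q and R, 0.0398% between Q and A and 2.47% (124 genes, 364 with the replicate block) between R and A. At an unadjusted p below 0.05 there were 0 members between Q and R, 0 between Q and A and 4 between R and A, against 19.7%, 18.4% and 22.9% of all genes. Those 4 were bgs3, higher in R by 0.57 (SE 0.20, adjusted p 0.132), bgs1, higher by 0.43 (adjusted p 0.19), bgs2, lower in R at -0.39 (SE 0.12, adjusted p 0.0903), and mok14, lower at -0.32 (adjusted p 0.213). DESeq2 called bgs2 between R and A (adjusted p 0.0383) and no other member between mutants.

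Across the 12 libraries some members kept close company. bgs1 and bgs3 had a Pearson r of 0.89 over log2 CPM, also 0.89 after each group's mean was taken away, and bgs1 and bgs4 had 0.86 and 0.85. bgs2 ran opposite to bgs3, with -0.86 and -0.85, and to bgs1, with -0.80 and -0.61. mok12 and mok13 had 0.83 and 0.88. Over the 36 pairs r ranged from -0.86 to 0.89. Same-numbered libraries of R deviated together with those of Q and with those of A. These values are descriptions of 12 libraries, which may not be independent cultures.

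**Figure D3:**
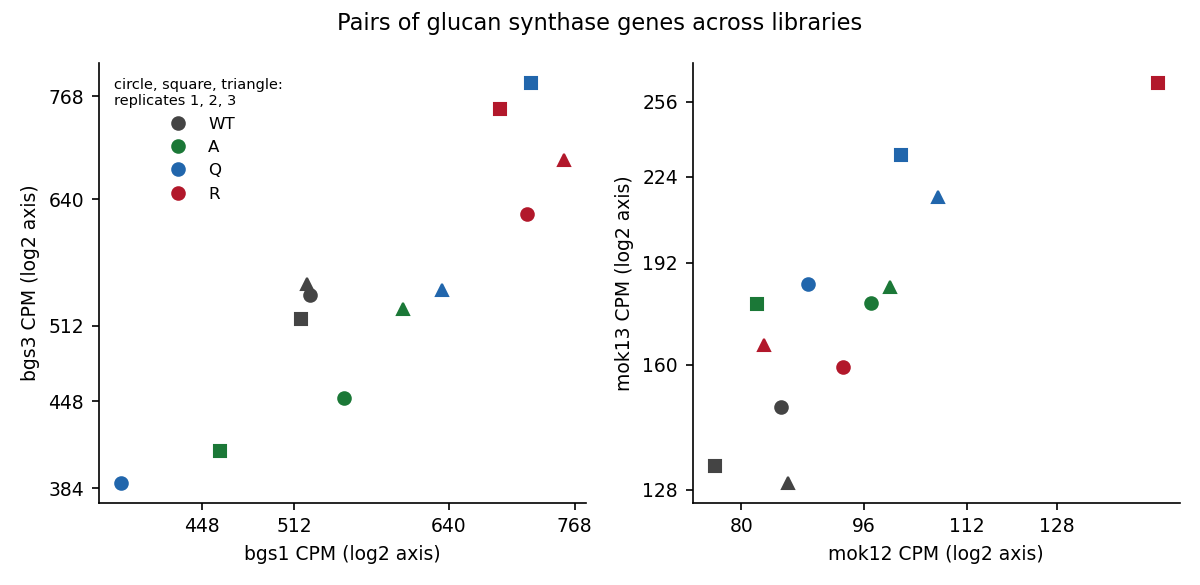
CPM of bgs1 against bgs3 and of mok12 against mok13 (log2 axes), 1 point per library, coloured by group and shaped by replicate. Q replicate 1 (398.4 and 387.8 CPM) lies at the low end of the first pair, and R replicate 2 (148.8 and 264.8 CPM) at the high end of the second.

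The genes most like each member were taken from 4777 genes with a mean of at least 5 CPM, by r over the 12 libraries. They were SPCC584.16c for bgs1 (0.97), ism1 for bgs2 (0.97), nde1 for bgs3 (0.96), bgs1 for bgs4 (0.86) and rim1 for ags1 (0.91). For the mok genes they were nup186 for mok11 (0.93), vps24 for mok12 (0.95), SPBC1685.14c for mok13 (0.98) and spf1 for mok14 (0.92). bgs4 was thus the only member whose closest gene was itself a glucan synthase. Each r was picked as the highest among 4777 genes over 12 libraries, so a high value was to be expected, and none was tested. After each group's mean was taken away, r for these pairs lay between 0.81 (mok14 and spf1) and 0.97 (bgs1 and SPCC584.16c).

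In the reference annotation every member overlaps annotated antisense RNAs. How strand was handled in counting is not stated in the labels or headers, so reads from a member and from such an RNA cannot be told apart. bgs1 also overlaps SPBC19G7.04 on the other strand by 61 bases. SPBC19G7.04 had 60.5 CPM in WT and 24.3 in Q and fell there by 1.31 on the log2 scale (adjusted p 0.03). Its means were similarly low in A (27.3 CPM, -1.14, adjusted p 0.119) and R (28.4 CPM, -1.09, adjusted p 0.0714), without a call. mok11 overlaps aah2, an α-amylase family gene, by 625 bases in the reference annotation. The deposited counts and FPKM imply a mok11 length of 7.47 to 7.48 kb, against 8413 exon bases in the reference. Whether this overlap exists in the annotation behind the counts is therefore not known. mok14 overlaps mib1 on the same strand by 51 bases. aah2 rose to 35.1 ± 9.63 CPM in Q (log2 1.55 over WT, adjusted p 0.00452) and to 27.7 ± 12.2 in R (1.20, adjusted p 0.0125). The neighbours of these 3 members were named after their values were seen, and their part in the members' values was not tested. Similarity was searched among protein-coding genes in a single orientation of the genome, so similar genes on opposite strands could not match. In that search the longest match at 95% identity was the overlapping gene for bgs1, mok11 and mok14, and the other members had none. Shorter matches of those 3 members were not recorded. Among the members that could match, the longest BLAST hits joined bgs2 and bgs4, with 68.9% identity over 2742 bases, and bgs1 and bgs4, with 67.9% over 2804 bases. They also joined mok14 and ags1, with 67.4% over 1291 bases, ags1 and mok11, with 66.6% over 1454 bases, and mok11 and mok13, with 65.7% over 1485 bases. bgs3 and mok12 had no hit to another gene. Because relatives on opposite strands could not match, this does not show that bgs3 and mok12 are more distant.

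Because bgs2 and several mok genes serve sporulation, 9 markers of mating and sporulating cells were measured beside them. All 9 had counts in every library. Their summed level was 205 to 213 CPM in WT, 177 to 214 in A, 165 to 283 in Q and 231 to 273 in R, where every R library exceeded WT. Without mam2, a pheromone receptor gene singled out after its values were seen, the sum of the other 8 was 190 to 196 CPM in WT, 145 to 184 in A, 137 to 200 in Q and 141 to 173 in R, where every R library lay below WT. In Q 2 of the 9 rose (mam2, isp3) and 2 fell (cda1, map3), and in R 2 rose (mam2, mfm1) and 1 fell (map3). Of all tested genes 34.5% were called in Q and 24.2% in R. Without 1 library the marker calls fell to 2 in Q (WT replicate 3) and to 1 in R (any 1 WT library). mei4, the transcription factor that drives middle meiotic genes, lay between 40.2 and 56.0 CPM in the 12 libraries. The part of such cells in the values of bgs2, mok12, mok13 and mok14 was not tested.

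Of the 8 meiotic and spore transcription factor genes tested, 2 rose in A, 2 rose in Q, and 2 rose and 1 fell in R. The background of calls against WT was 34.5% of all tested genes in Q, 24.2% in R and 4.16% in A. The same background applies to the spore wall genes below. The median changes of the 8 genes were 0.30 in A, 0.18 in Q and 0.10 in R on the log2 scale. Without 1 library 0 to 2 were called in A (0 without A replicate 2 or any 1 WT library, 1 without A replicate 3), 2 to 3 in Q and 2 in each fit of R. ste11, the regulator that starts sexual differentiation, rose from 28.4 ± 4.94 CPM in WT to 154 ± 74.1 in Q (2.44, adjusted p 0.00222) and 238 ± 38.9 in R (3.07, adjusted p 0.000355). mei2, an RNA-binding protein needed to enter meiosis, rose from 3.07 ± 0.856 CPM to 43.1 ± 17.1 in Q (3.82, adjusted p 0.00197) and 32.1 ± 17.4 in R (3.39, adjusted p 0.000994). Both also rose in A at an adjusted p of 0.0197, but these calls were not kept in every fit without 1 library, with an adjusted p of up to 0.108. Of the 15 spore wall and sporulation genes tested, 1 rose in A, 2 rose and 3 fell in Q, and 1 rose and 2 fell in R, with medians of 0.12, 0.21 and -0.30. Without 1 library these calls numbered 0 to 1 in A, 2 to 4 in Q (3 without WT replicate 2, 2 without WT replicate 3) and 0 to 3 in R. The spore wall calls were 0 in A without A replicate 1 or 3 or any 1 WT library, 0 in R without WT replicate 1 or 3, and 1 in R without WT replicate 2 or R replicate 2 or 3. isp3, a protein of the spore surface, rose from 14.7 ± 1.68 CPM to 41.2 ± 17.9 in Q (1.49, adjusted p 0.00647), while mde10, a metalloprotease of spore wall development, fell from 21.7 ± 1.24 to 12.4 ± 3.09 in Q (-0.80, adjusted p 0.00907).

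Among the enzymes that cut or remodel glucan, agn1 and bgl2 rose by more than 2-fold in R and eng1 fell by more than 2-fold in Q. Of 14 such genes tested, 1 rose in A, 2 rose and 2 fell in Q, and 5 rose and 1 fell in R, with medians of -0.01, -0.27 and -0.06. Among all 5024 tested genes, Q against WT had 34.5% called, R had 24.2% and A had 4.16%. Of the list's calls, 0 of 1 (A), 2 of 4 (Q) and 2 of 6 (R) held in every fit without 1 library. The calls then numbered 0 to 2 in A (2 without A replicate 1, 0 without any other library), 2 to 5 in Q (2 without WT replicate 1 or 3) and 2 to 5 in R (2 without WT replicate 1 or 3, 3 without R replicate 2 or 3). bgl2, a predicted β-glucosidase in the deposited tables, had 290, 334 and 285 CPM in WT and 958, 836 and 1009 CPM in R. It rose in R by 1.63 (adjusted p 0.000131) and in Q by 0.86, to 549 ± 85.4 CPM (adjusted p 0.00472), with no overlap of either group with WT. agn1, the α-glucanase that helps the daughter cells part, had 362, 462 and 386 CPM in WT, 967, 1340 and 1287 in R and 217, 237 and 438 in Q. It rose in R by 1.57 (adjusted p 0.00345), and the difference of Q from R was -2.01 (adjusted p 0.00176), with Q overlapping WT.

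eng1, the endo-β-glucanase that cuts the primary septum, had 139, 151 and 118 CPM in WT and 42.1, 56.5 and 54.2 CPM in Q. It fell in Q by 1.42 on the log2 scale (SE 0.30, adjusted p 0.0062), with every Q library below every WT library. The A libraries of eng1, at 89.1, 44.1 and 60.3 CPM, also all lay below WT, though it was not called in A. Between Q and R, where 3.64% of all tested genes were called, 5 of the 14 genes were lower in Q and 0 higher. Of these the calls of agn1 and adg3 held in every fit without 1 library. The list's calls between Q and R numbered 2 without Q replicate 1 or R replicate 3, 3 without Q replicate 2 or 3 or R replicate 1, and 6 without R replicate 2. With the replicate block they numbered 4, in limma with either pseudocount 3, and in the fit of Q and R alone 1. Between R and A, where 2.47% of all tested genes were called, 3 of the 14 genes were higher in R and 0 lower. The number higher was 5 with the replicate block and 1 without A replicate 1, R replicate 1 or R replicate 3. adg3, a β-glucosidase gene chosen after its values were seen, had 656 ± 249 CPM in Q and 1747 ± 87.2 in R (-1.41, adjusted p 0.00812). The adg3 call was lost in the fit of Q and R alone. Another gene chosen after its values were seen was psu1, a cell wall protein of the glucosidase family, with 1202 ± 78.1 CPM in WT and 764 ± 92.5 in Q (-0.65, adjusted p 0.0319). The psu1 call was lost without any 1 of the WT libraries and without Q replicate 1 or 3, with an adjusted p of up to 0.0965. In A psu1 had 741, 765 and 792 CPM, below every WT library, but was not called.

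**Figure D4:**
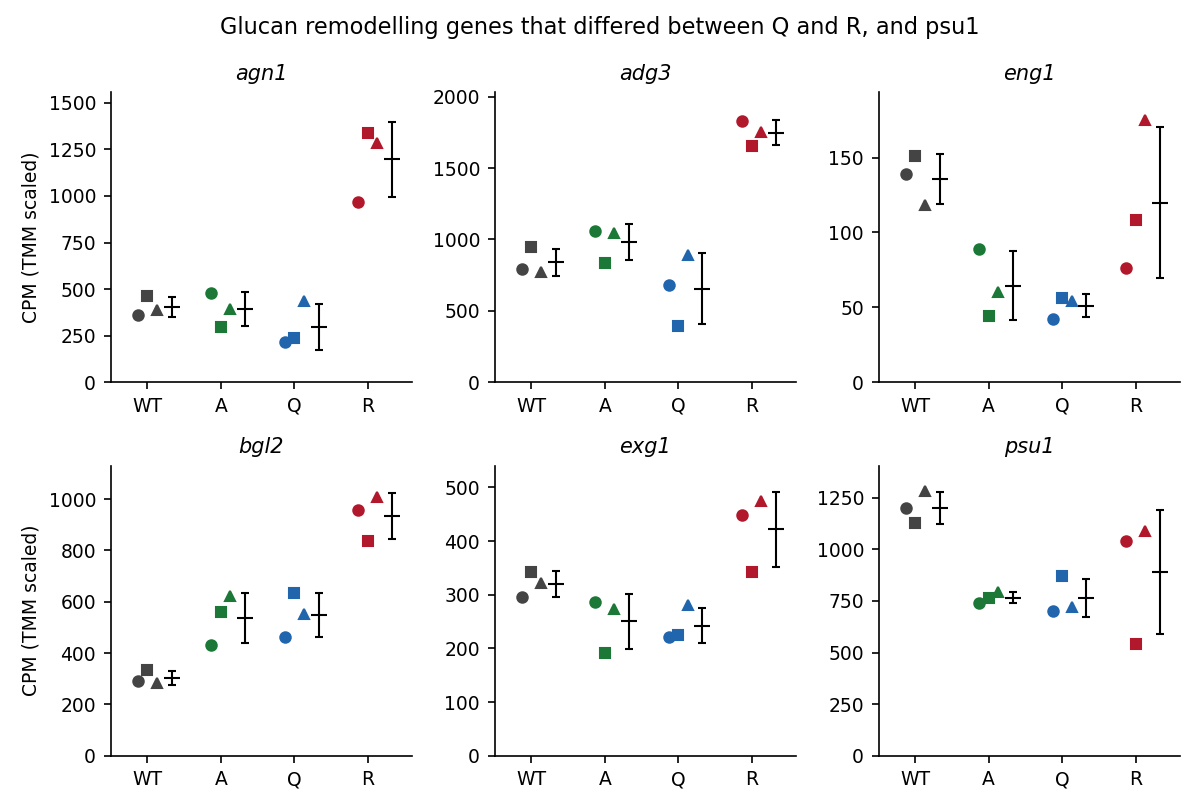
CPM (TMM scaled, axes from 0) of 6 glucan remodelling genes in the 12 libraries, with circles, squares and triangles for replicates 1, 2 and 3 and a bar for the mean ± SD of each group. All R libraries of agn1 (967 to 1340 CPM) and adg3 lie above all other libraries. The Q libraries (42.1 to 56.5 CPM) and the A libraries (44.1 to 89.1 CPM) of eng1 lie below WT.

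Of 10 genes listed for the cell integrity MAP kinase pathway, which answers to wall stress, 0 were called in A. In both Q and R 1 rose and 2 fell, and the medians were -0.21, -0.20 and -0.12 in A, Q and R. The 10 were mkh1, pek1, pmk1, pmp1, rnc1, ppb1, cch1, prz1, kin1 and shk1, not all of them parts of the kinase cascade itself. Those called were prz1, pmp1 and pmk1 in Q and prz1, cch1 and pmp1 in R. Of those 3 calls in Q and 3 in R, 0 held in every fit without 1 library. Over all tested genes the shares called were 4.16% in A, 34.5% in Q and 24.2% in R. The list's calls in Q were 0 without Q replicate 2 or WT replicate 2 or 3 and 1 without WT replicate 1. Those in R were 0 without WT replicate 1 and 1 without WT replicate 2 or 3 or R replicate 2.

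Galactomannan, the other wall polymer, was represented by 15 genes. In A 1 rose and 0 fell, and in both Q and R 6 rose and 1 fell. Background shares of all tested genes called were 4.16% in A, 34.5% in Q and 24.2% in R. The medians of the 15 genes were -0.03, 0.23 and 0.27. In Q the balance was 4 higher and 4 lower without replicate 2 of A, Q and R, 3 and 2 without Q replicate 2, and 4 and 2 in the fit of Q and WT alone. vrg4, a GDP-mannose transporter, rose from 121 ± 14.2 to 272 ± 61.7 CPM in Q (1.17, adjusted p 0.00535). omh1, a mannosyltransferase, rose from 367 ± 26.5 to 965 ± 390 CPM in Q (1.40, adjusted p 0.00623). pmm1, a phosphomannomutase, rose from 463 ± 43.6 CPM to 774 ± 174 in Q (0.74, adjusted p 0.0114) and to 908 ± 71.7 in R (0.97, adjusted p 0.00581). The Q calls of these genes and the R call of pmm1 held in every fit without 1 library, and the other galactomannan calls did not. The call in A was lost in each such fit. The count in Q was 3 without any 1 WT library, and that in R was 1 without WT replicate 1, 3 without WT replicate 3 or R replicate 2, and 4 without WT replicate 2.

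The authors' deposited table gave an FDR below 0.05 to more of the 9 genes than the fit used here. In the authors' deposited table these were mok13 (FDR 0.00113) and mok14 (0.00499) in A, mok13 in Q (7.51e-05), and bgs1 (5.01e-07), bgs2 (0.00296), mok11 (0.00325), bgs3 (0.0045) and mok13 (0.0422) in R. Each had the same direction as the fit used here, for example log2 ratios of 0.38 for bgs1 and -0.48 for bgs2 in R in the authors' deposited table. The authors' deposited tables of changed genes list 148 genes for A, 428 for Q and 343 for R, of which 0 were glucan synthase genes.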

How the data were processed

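Poly(A) RNA was sequenced in 12 libraries, grouped by the sample titles. Per the file headers, the deposited full tables hold whole-number counts and FPKM values per gene and library, and the authors' log2 ratios, p-values and FDRs per comparison. Tools listed in the submitters' processing notes, with no role stated, are StringTie, HISAT2, RSEM, Bowtie2, DESeq2 and fastp. Build, annotation and strand setting: not given in the sources used here. For that reason no coordinates or sequences are printed.

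Counts were tested with edgeR 4.0.16 (R 4.3.3): filterByExpr kept 5024 genes and left out 136, TMM scaling, 1 quasi-likelihood fit over all 12 libraries with group as the only term, Benjamini-Hochberg adjustment over all tested genes, two-sided. The fit had a biological coefficient of variation of 0.186, and SEs were derived from the F statistic. CPM used a prior count of 2 on the log2 scale for correlations. Alternatives were DESeq2 1.42.0, RLE scaling, limma 3.58.1 on log2(FPKM + 1) and log2(FPKM + 0.1), no filter, 2 groups alone, a replicate block, no replicate 2 of the mutants and leaving out each library. The edgeR steps were tested on simulated data.

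The 9 genes and 7 lists of related genes were chosen with earlier results of these data known. Of the lists 2 are not reported here. The rule for names took all 9 genes, the 2 genes of each list with the lowest p in each mutant (only examples are printed) and the gene most like each member. Reference assembly ASM294v3 served for names (5109 identifiers matched), overlaps between genes and, with BLAST 2.17.0, similarity.

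Deviations from group means of same-numbered libraries correlated at 0.32, 0.4 and 0.29 between Q and R and at 0.18, 0.32 and 0.19 between R and A, all above 0.1, though no label ties numbers to a batch. The values printed for these comparisons come from the fit without a block, and the block was an alternative. Within groups, counts varied beyond sampling noise in each pair of libraries (chi-square per degree of freedom 15.8 to 204.3). Reads carry no molecular identifiers, so floors cover counting error only.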

Additional observations from a re-analysis of the deposited data

How the results depend on the processing

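Under the alternatives run, mok13 ranged from 0.53 to 0.71 in Q and from 0.24 to 0.65 in R, and bgs2 from -0.48 to -0.34 in R on the log2 scale. Called glucan synthase genes numbered 0 to 0 in A, 0 to 2 in Q (2 without Q replicate 1) and 0 to 2 in R without 1 library. DESeq2 called 1 in A and 1 between R and A, the 2 groups alone 2 in A and 4 in R, limma 1 in R with either pseudocount, and the fits without replicate 2 of A, Q and R 2 in A, 3 in Q and 1 in R. The replicate block gave counts of 0 for A, 1 for Q and 2 for R, so the pairing changed no count of members, none between mutants included. Calls over all genes were 209 in A, 1731 in Q, 1218 in R, 183 between Q and R, 2 between Q and A and 124 between R and A. DESeq2 gave 546 in A, 344 between Q and R, 115 between Q and A and 444 between R and A. The replicate block gave 464 in A, 96 between Q and A and 364 between R and A. The 2 groups alone gave 933 in A, 42 between Q and R and 0 between Q and A, where limma gave 1 with either pseudocount. Without replicate 2 there were 650 in A, 882 between Q and R, 453 between Q and A and 464 between R and A. Without 1 library they ranged from 2 to 97 in A, 841 to 1681 in Q, 325 to 1108 in R, 51 to 462 between Q and R, 1 to 184 between Q and A and 51 to 172 between R and A. Some differences from WT that were not called in the main fit turned sign. The largest of these in the main fit were 0.17 for bgs1 and 0.1 for bgs3, both in Q. bgs1 in A gave -0.0007 and -0.0009 in limma, and bgs1 in Q -0.03 without replicate 2 of A, Q and R. bgs2 in A gave -0.0004 with RLE, -0.01 in the 2 groups alone, -0.03 in limma and -0.0002 in DESeq2. bgs3 in Q gave -0.22 and bgs4 in Q -0.06 without replicate 2 of A, Q and R, and bgs4 in A -0.01 in limma. Without 1 library the ranges were -0.04 to 0.14 for bgs1 in A, -0.01 to 0.38 for bgs1 in Q, -0.06 to 0.04 for bgs2 in A, -0.2 to 0.31 for bgs3 in Q, -0.04 to 0.08 for bgs4 in A and -0.04 to 0.13 for bgs4 in Q. The causes were not tested. In limma on log2(FPKM + 1) the median log2 change of all genes was -0.1 in R and 0.13 between Q and R, against -0.005 and 0.02 in edgeR, and scaling and test changed together there.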
